A study of Mus musculus with 2 samples.

Results

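Epiregulin (Ereg), amphiregulin (Areg) and heparin-binding EGF-like growth factor (Hbegf) are ligands of the epidermal growth factor (EGF) receptor. They were chosen by gene name, with earlier results of these data known. They make up 3 of the 5238 genes listed in any of the deposited tables on salivary gland organoid stroma. The FGF2 table listed all 3, the control table listed Ereg and Hbegf, and the table of both libraries after integration listed all 3. Organoids are cultured cell aggregates that keep features of a tissue. There was 1 library of organoids with FGF2 (fibroblast growth factor 2, which acts on fibroblasts and other mesenchymal cells) and 1 control library. Both were stroma of CD-1 mouse salivary gland, CD-1 being an outbred stock, with an age label of embryonic day 16 with 7 added. The labels do not say what the added 7 means, nor the dose and timing of FGF2, nor how many animals or cultures stand behind each library. Per the labels' protocols, 10107 FGF2 cells and 5023 control cells were captured by a droplet method that reads the 3' end of each transcript.

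The EGF receptor (Egfr, also ErbB1) is a receptor tyrosine kinase that pairs with its relatives ErbB2, ErbB3 and ErbB4. Its ligands are made as membrane-anchored precursors and are released by cell-surface proteases, chiefly ADAM17. In the embryonic salivary gland, EGF receptor signalling is known to act in branching and growth of the epithelium, and stromal cells are one source of growth factors for that epithelium. Epiregulin binds Egfr and ErbB4, amphiregulin binds Egfr, and HB-EGF binds Egfr and ErbB4 and also heparan sulphate. Whether any of these RNAs gave protein was not measured here.

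Each table sets a cluster of cells against the rest of that table's cells. They give the share of cells with a count above 0 on both sides and the natural log of the ratio of average levels, and they list only genes that passed the authors' limits. The lists held 15.2% of the 20056 genes tested with FGF2, 23.2% of the 19070 tested in the control and 43.1% of the 2802 tested after integration. Absence from a list does not mean absence of RNA. With 1 library per group, nothing below has a replicate check and nothing was tested. The depth per cell was unknown. Most cells were stromal by their markers: Pdgfra, a receptor of fibroblasts, was found in 84.2% of the FGF2 cells and 78.3% of the control cells. Dcn (91.7% of FGF2 cells, 84.8% of control cells), Lum (69.0%, 51.1%) and Thy1 (85.3%, 72.4%) went the same way. Col1a1 (72.1% of FGF2 cells, 92.3% of control cells), Col1a2 (90.6%, 93.2%) and Pdgfrb (57.6%, 82.0%) went the other way. A share does not tell apart fewer cells that express a gene and less RNA in each cell. Clusters with markers of epithelium, glia, leukocytes or endothelium held 4.47% of the FGF2 cells and 5.85% of the control cells.

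A larger share of cells had Ereg and Hbegf in the FGF2 library than in the control library. Ereg was found in 67.4% of the FGF2 cells and in 13.1% of the control cells. The ratio was 5.12-fold, a log2 value of 2.35, which ranked 18 among the 2318 genes that could be compared. Hbegf was found in 39.4% of the FGF2 cells and in 16.3% of the control cells, a ratio of 2.40-fold with a log2 value of 1.27 and rank 66. Both of the 2 measured ligands were therefore higher by the size rule of 1.5-fold, which 7.46% of all compared genes passed in that direction. Both also passed 2-fold, as did 4.14% of the compared genes. Among the 1177 genes whose control share left room for such a difference, 14.7% passed. Areg was found in 34.5% of the FGF2 cells. It was in no cluster list of the control table, so its control share is not known and no ratio was formed.

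**Figure D1:**
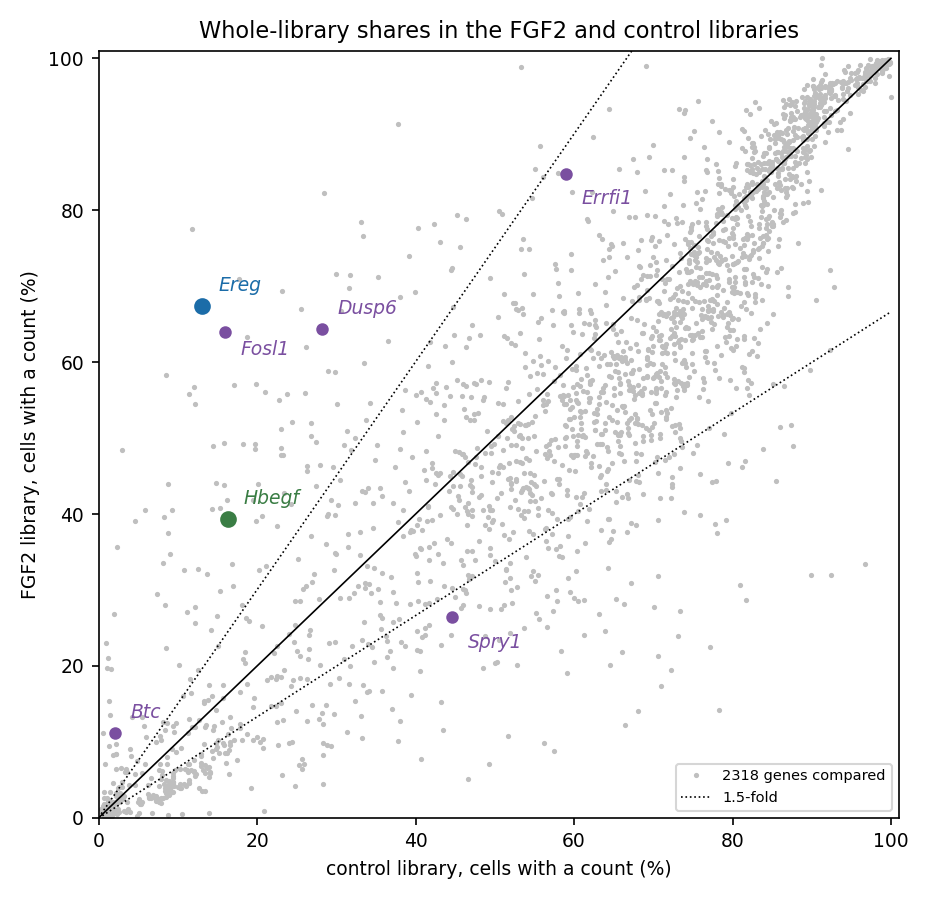
Each point is a gene, with the percentage of cells with a count in the control library on the horizontal axis and in the FGF2 library on the vertical axis. The solid line marks equal shares and the dotted lines 1.5-fold. Ereg (67.4% of FGF2 cells, 13.1% of control cells) and Hbegf (39.4% of FGF2 cells, 16.3% of control cells) lie above the upper dotted line, as do Btc, Fosl1 and Dusp6. Spry1 lies below the lower line and Errfi1 between the lines.

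Marker genes of other cell states differed between the libraries too. Of 6 contractile markers 4 could be compared, and all 4 were found in a smaller share of the FGF2 cells: Acta2 in 31.9% against 89.9% of control cells, Tagln in 39.2% against 79.2%, Cnn1 in 7.78% against 40.7% and Myl9 in 19.5% against 72.2%. All 4 were past 1.5-fold, as were 15.1% of all compared genes in that direction. The other contractile markers, Actg2 and Myh11, were listed in the control table alone. The part of this difference in the shares of the ligands was not tested.

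Free RNA in droplets and unequal depth can both change such shares. Ereg was found in 9.7% of the Schwann or glial-like cluster 16, 18.8% of the mast cell-like cluster 15 and 18.9% of the epithelial-like cluster 11. The share of Ereg over the control library, 13.1%, lay within this range, and the non-stromal control clusters are not among those listed for Ereg. Areg was found in 6.5%, 15.6% and 11.3% of clusters 16, 15 and 11, and Hbegf in 6.5% of cluster 16. How much of any share came from free RNA was not tested. With every non-stromal cluster left out, Ereg was at 69.2% of the FGF2 cells and 13.9% of the control cells, and Hbegf at 36.8% of the FGF2 cells and 16.9% of the control cells. Clusters whose listed genes had a median share under 20% made up 5.23% of the FGF2 cells and 13.4% of the control cells. Without them, the log2 ratio was 2.21 for Ereg and 0.9997 for Hbegf, so that Hbegf no longer passed 2-fold but still passed 1.5-fold. Where a left-out cluster had no entry, its cells were all taken as positive in the FGF2 library and all as negative in the control library, which brings the shares as near to each other as they could be.

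Within the FGF2 library the 3 ligands led in different clusters. Ereg was listed higher in clusters 7 and 1, Areg in cluster 3 alone and Hbegf in cluster 0 alone. No FGF2 cluster was listed higher for more than 1 ligand. Few genes were listed higher in these clusters at all: 0.289% of tested genes in cluster 0, 0.374% in cluster 1, 0.553% in cluster 3 and 0.883% in cluster 7. With shares this small, a lack of overlap was not particular to the ligands. All 3 were listed lower in clusters 2, 13 and 16, where 0.529%, 4.77% and 4.54% of all tested genes were listed lower. In clusters 0 and 7 the ligands went in opposite directions. Of the tested genes, 0.713% were listed lower in cluster 0, 0.813% in cluster 4, 0.583% in cluster 5, 0.219% in cluster 6 and 0.658% in cluster 7. For clusters 10, 11 and 15 these shares were 0.987%, 2.51% and 5.1%. None was listed for clusters 8, 9, 12 and 14. These are the stromal cluster led by Mgp, Pla1a and Ccl8, the proliferating-like cluster, the one led by Ccl7, Ccl2 and Gm8797, and the neutrophil-like cluster.

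**Figure D2:**
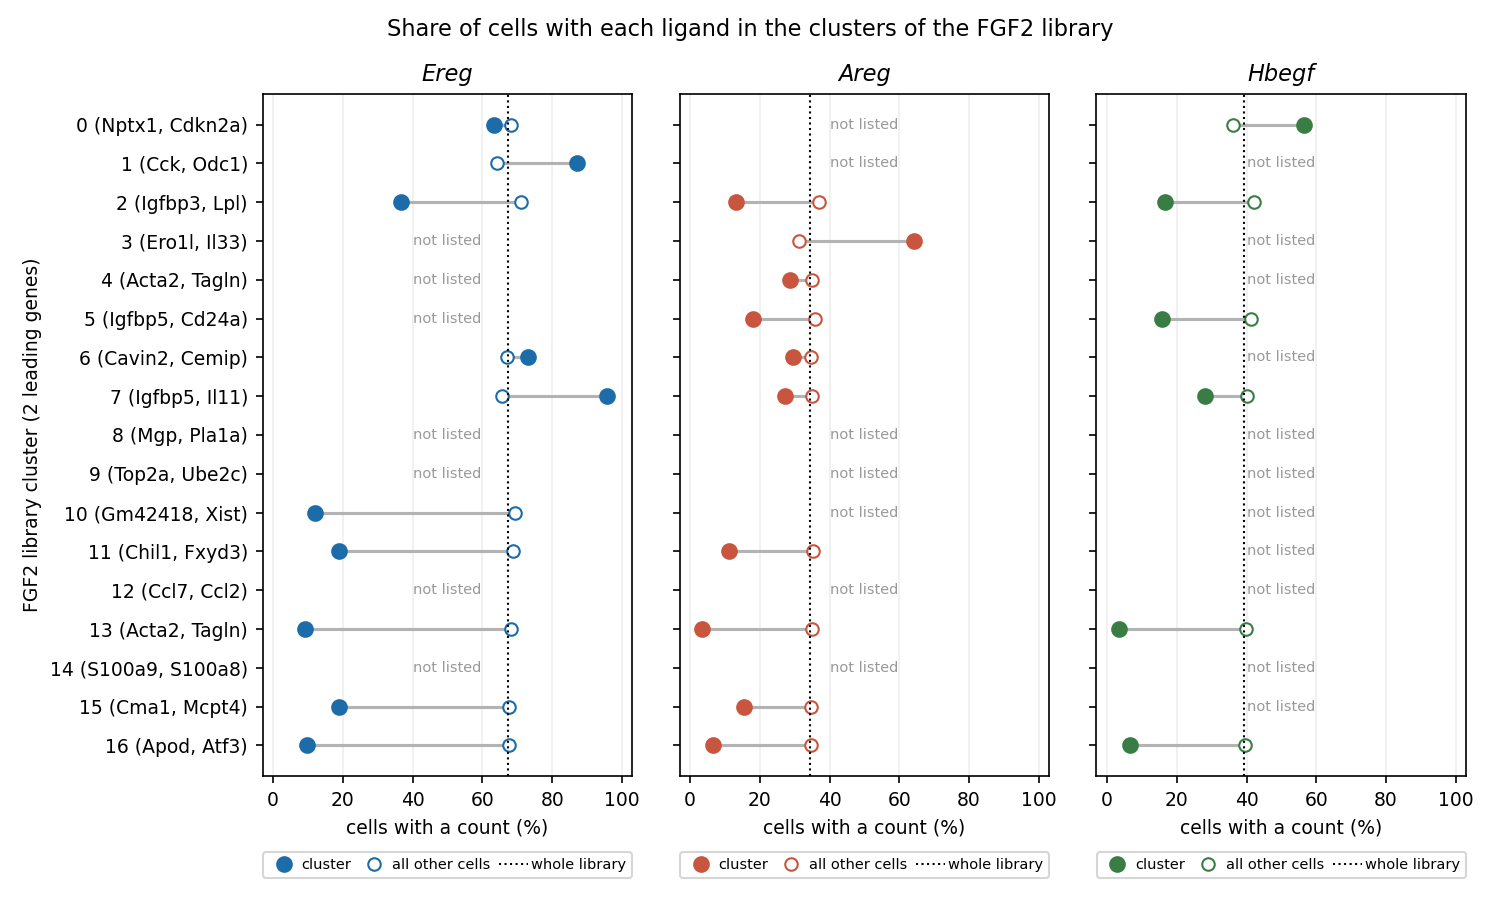
Filled points give the percentage of cells with a count in each cluster of the FGF2 library and open points that in all other cells, for Ereg, Areg and Hbegf. The dotted line is the share over the whole library. The filled point lies farthest to the right in cluster 7 for Ereg (95.6%), in cluster 3 for Areg (64.2%) and in cluster 0 for Hbegf (56.5%).

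Ereg appeared for 10 of 17 FGF2 clusters, 2 higher and 8 lower. In all, 3.37% of the listed genes appeared for at least as many. The highest listed share was in cluster 7, led by Igfbp5, Il11 and Slpi, with 95.6% of its cells against 65.6% of the other cells. The average level there was 2.74-fold that of the other cells as listed, and Ereg held rank 12 of 177 genes listed higher, a direction in which 0.883% of all tested genes were listed. Cluster 1, led by Cck, Odc1 and Tac1, followed with 87.1% against 64.2% and a ratio of 1.73 (rank 9 of 75, with 0.374% of tested genes listed higher). The median share of all genes listed for clusters 7 and 1 was 77.5% and 76.25%, against 62.1% and 64.9% in the other cells. A larger share there was thus not particular to Ereg.

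The listed ratios carry an offset added to both averages, since 120 entries of the FGF2 table have a finite ratio although the share in the cluster is listed as 0. An offset pulls ratios towards 1. The lowest ratio of a gene sets a lower limit on its average, because no average can be below 0, and this brackets the ratio without the offset. For Ereg in cluster 7 the bracket ran from 2.74 to 3.94, and in cluster 1 from 1.73 to 2.23. The share and the level together also bracket the average per positive cell. Ereg-positive cells of cluster 7 held 1.88 to 2.70 times the average of Ereg-positive cells elsewhere, and those of cluster 1 held 1.27 to 1.64 times. In these clusters, then, a larger share of cells had Ereg and the positive cells had more of it on average.

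In some stromal clusters the Ereg-positive cells held less than those elsewhere. Cluster 0, led by Nptx1, Cdkn2a and Ctsl, had Ereg in 63.4% of its cells against 68.2% of the others, close to the library share. Its average was nonetheless 0.612 of that of the other cells, and its positive cells held 0.438 to 0.659 of the average of positive cells elsewhere. Cluster 6, led by Cavin2, Cemip and Ccl2, had Ereg in more of its cells (73.1% against 67.0%) at a ratio of 0.697, with 0.481 to 0.638 per positive cell. It was the 1 of 26 ligand entries in the FGF2 table in which share and level pointed opposite ways.

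Cluster 2, led by Igfbp3, Lpl and Clu and with Col1a1, Col1a2, Lum and Pdgfrb listed higher, had Ereg in 36.7% of its cells against 71.1% at a ratio of 0.463. Its positive cells held 0.342 to 0.897 of the average of positive cells elsewhere, so here too they held less. Among the large stromal clusters listed for Ereg, cluster 2 was the lowest, with 10.8% of all cells. The remaining low values were in small clusters. Cluster 10, led by Gm42418, Xist and Malat1, had 12.1% against 69.4% (ratio 0.7), and cluster 13, led by Acta2, Tagln and Actb, 9.2% against 68.3% (ratio 0.366). The median share of the genes listed for clusters 10 and 13 was 14.4% and 12%, against 70.8% and 66.5% in the other cells, so low shares there were not particular to Ereg. Ratios in clusters 11, 15 and 16 were 0.408, 0.451 and 0.432.

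The 7 FGF2 clusters without an Ereg entry held 37.6% of the cells, and 77.5% of them had Ereg, with an average close to that of the library (1.005 times it on the scale of average plus offset). They held 43.2% of all Ereg-positive cells. Cluster 1 held 18.2%, cluster 0 held 15.4% and cluster 7 held 8.58%.

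Areg lies beside Ereg on mouse chromosome 5. In RefSeq's annotation of GRCm38.p6, the build family of mm10 that the submitters' processing notes name, Ereg spans chr5:91074617-91093649 and Areg chr5:91139599-91148432. They are 45.9 kb apart, with no annotated gene between them. The 250 bases before the start of Areg, chr5:91139349-91139598 on the + strand (RefSeq, GRCm38.p6), are shown because this neighbour of Ereg led in another cluster. Capitals mark a cAMP response element, TGACGTCA, which begins 61 bases before the start, and a TATA box, TATAAA, which begins 31 bases before it.
Areg promoter: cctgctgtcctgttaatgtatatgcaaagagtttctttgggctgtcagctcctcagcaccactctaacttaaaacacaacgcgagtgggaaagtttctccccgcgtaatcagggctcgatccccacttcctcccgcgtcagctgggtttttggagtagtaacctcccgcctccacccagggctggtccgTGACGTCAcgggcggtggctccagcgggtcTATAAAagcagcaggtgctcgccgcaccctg
Read on both strands, the first motif was in 1.55% and the second in 12.4% of 32851 RefSeq promoter windows of the same length. A match is a description of the letters and not a site. Of the 3 ligands, only Areg was matched in the promoter table.

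Areg had its highest listed share in cluster 3, led by Ero1l, Il33 and Fam162a. It was found in 64.2% of that cluster's cells and 31.2% of the other cells. The listed ratio was 2.39, with a bracket of 2.39 to 4.58 without the offset, and 1.16 to 2.23 per positive cell. Areg held rank 9 of 111 genes listed higher there (0.553% of tested genes). The median share of all genes listed for cluster 3 was 79.7%, against 64.5% in the other cells. Cluster 3 made up 9.87% of the cells and held 18.4% of the Areg-positive cells. Ereg was not listed for this cluster.

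Areg was listed lower in 9 further FGF2 clusters, making 10 of 17, as for Ereg. Among the large stromal clusters listed for Areg it was lowest in cluster 2, with 13.3% of cells against 37.0% (ratio 0.595). Next came cluster 5, led by Igfbp5, Cd24a and Nr4a2, with 18.2% against 35.8% (ratio 0.649). The contractile-like cluster 4, led by Acta2, Tagln and Thbs1, had 28.8% against 35.0% (ratio 0.639), and cluster 6 had 29.4% against 34.8% (ratio 0.692). In cluster 7, where the listed share of Ereg was highest, Areg was at 27.1% against 35.0% (ratio 0.774). Areg was thus listed lower in the cluster that led for its neighbour Ereg, but only just. Its natural log ratio there was -0.256, and the smallest size listed for any FGF2 entry was 0.25. It held rank 123 of 132 genes listed lower in cluster 7. Cluster 13 had 3.5% against 34.9% (ratio 0.606). The non-stromal clusters 11, 15 and 16 had ratios of 0.618, 0.753 and 0.539. The 7 clusters without an Areg entry held 46.5% of the cells, of which 41.1% had Areg. They held 55.5% of all Areg-positive cells.

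Hbegf was listed for 6 of 17 clusters, and 11.8% of listed genes appeared for at least as many. It was higher in cluster 0 alone, with 56.5% of cells against 36.0% and a ratio of 1.42 (bracket 1.42 to 2.44, rank 24 of 58, with 0.289% of tested genes listed higher). Per positive cell the bracket of 0.904 to 1.55 included 1, so a higher level in each positive cell was not shown. Cluster 0 made up 16.4% of the cells and held 23.5% of the Hbegf-positive cells. The median share of all genes listed for it was 63.4%, against 62.3% in the other cells. Ereg-positive cells of cluster 0 held less Ereg than those elsewhere.

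Lower Hbegf entries came from cluster 5 (15.7% against 41.2%, ratio 0.671), cluster 2 (16.6% against 42.1%, ratio 0.717) and cluster 7 (28.1% against 40.1%, ratio 0.748), and from clusters 13 (3.5% against 39.9%, ratio 0.668) and 16 (6.5% against 39.5%, ratio 0.663). The 11 clusters without an entry held 57.7% of the cells, and 44% of those cells had Hbegf. Of 7 clusters with entries for both Ereg and Areg, 6 went the same way, all of them lower. Ereg and Hbegf shared 5 clusters and went the same way in 3 of them, and Areg and Hbegf in 5 of 5. These shared directions were all lower too. In clusters 11, 13, 15 and 16 more genes were listed lower than higher, so shared lower entries there were not particular to the ligands. In clusters 2, 5, 6 and 7 fewer genes were listed lower than higher. How often other pairs of genes went the same way was not tested.

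The control library had few entries for the ligands. In every control entry of any gene, the larger of the 2 shares was at least 25.1%. The library shares were 13.1% for Ereg and 16.3% for Hbegf, so a low share in a cluster could not bring an entry. Ereg was listed for 1 of 15 clusters, the small cluster 12, led by Ccl2, Mt1 and Hmox1. There it was found in 48.8% of the cells against 12.8% of the others, at a ratio of 2.88 (rank 31 of 477 genes listed higher, 2.5% of tested genes). Cluster 12 made up 0.828% of the control cells and held 3.08% of the Ereg-positive cells. The other 96.9% of positive cells lay in clusters without an entry, where Ereg was found in 12.8% of the cells. Mt1 encodes a metallothionein and Hmox1 haem oxygenase, both known to be induced by oxidative stress and metals.

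Hbegf was listed higher in 3 control clusters, and 27.1% of listed genes appeared for at least as many clusters. The lack of lower entries is not a result, since a low share of Hbegf could not be listed there. Cluster 6, led by Mgp, Pmepa1 and Timp1, had Hbegf in 45.7% of its cells against 14.0% (ratio 1.80, rank 21 of 143, with 0.75% of tested genes listed higher). It held 20.1% of the Hbegf-positive control cells. Cluster 12 had 46.3% against 16.1% (ratio 1.73), and the Schwann or glial-like cluster 10 had 34.5% against 16.1% (ratio 1.54, where 5.07% of tested genes were listed higher). Control glial-like cells thus had Hbegf more often than the other control cells, whereas the FGF2 glial-like cluster 16 was listed lower, with 6.5% against 39.5%. Cluster 16 is 0.307% of the FGF2 cells and its listed genes were found in a median of 16.1% of its cells, whereas those of control cluster 10 were found in 56.9%. The difference between the libraries in glial-like cells was not tested.

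The integrated table holds both libraries after values were made comparable, so its differences are differences of integrated values and not of expression. Ereg was listed for 11 of 14 integrated clusters, and 2.57% of its listed genes appeared for at least as many. Areg and Hbegf were listed for 6 each (19.7% of listed genes). Ereg had its highest ratio, 2.59, in integrated cluster 1, led by Igfbp5, Slpi and Il11 (3.53% of tested genes listed higher). Areg had 2.97 in integrated cluster 6, led by Il33, Ero1l and Slc2a1, where it held rank 6 of 84 (3% of tested genes), and Ereg was also higher there, at 1.57. Hbegf had 2.24 in integrated cluster 10, led by Mgp, Pmepa1 and Slc20a1, with 94.8% of cells against 57.8% (4.35% of tested genes). It was also higher, at 1.36, in integrated cluster 0, led by Ctsl, Mmp13 and Crabp1 (1.96% of tested genes). Integrated cluster 8, led by Il1rl1, U90926 and Gsta4, was higher for Ereg (1.29) and Hbegf (1.33), with 1.75% of tested genes listed higher.

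All 3 ligands were lower in integrated clusters 3, led by Mgp, Lum and Igfbp3, and 7, led by Ifitm1, Lpl and Saa3, where 3.1% and 4.53% of tested genes were listed lower. Ereg was also lower in integrated clusters 2, 4, 9, 11, 12 and 13, where that share was 4.68%, 4.28%, 8.89%, 10%, 10.8% and 9.56%. The ratios of Ereg in integrated clusters 4, 9, 11, 12 and 13 were 0.606, 0.435, 0.644, 0.425 and 0.447. Areg was lower in integrated clusters 4, 9 and 11, with ratios of 0.759, 0.689 and 0.774, and Hbegf in integrated cluster 13, with 0.765. The ratios in cluster 3 were 0.732 for Ereg, 0.761 for Areg and 0.736 for Hbegf. The ratios in cluster 7 were 0.505 for Ereg, 0.619 for Areg and 0.687 for Hbegf. In 6 of the 23 ligand entries of this table the share and the ratio pointed opposite ways. An example is Ereg in the contractile-like cluster 2, with 92.2% of cells against 75.8% at a ratio of 0.589. A share of integrated values above 0 is not a share of cells with a count.

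**Figure D3:**
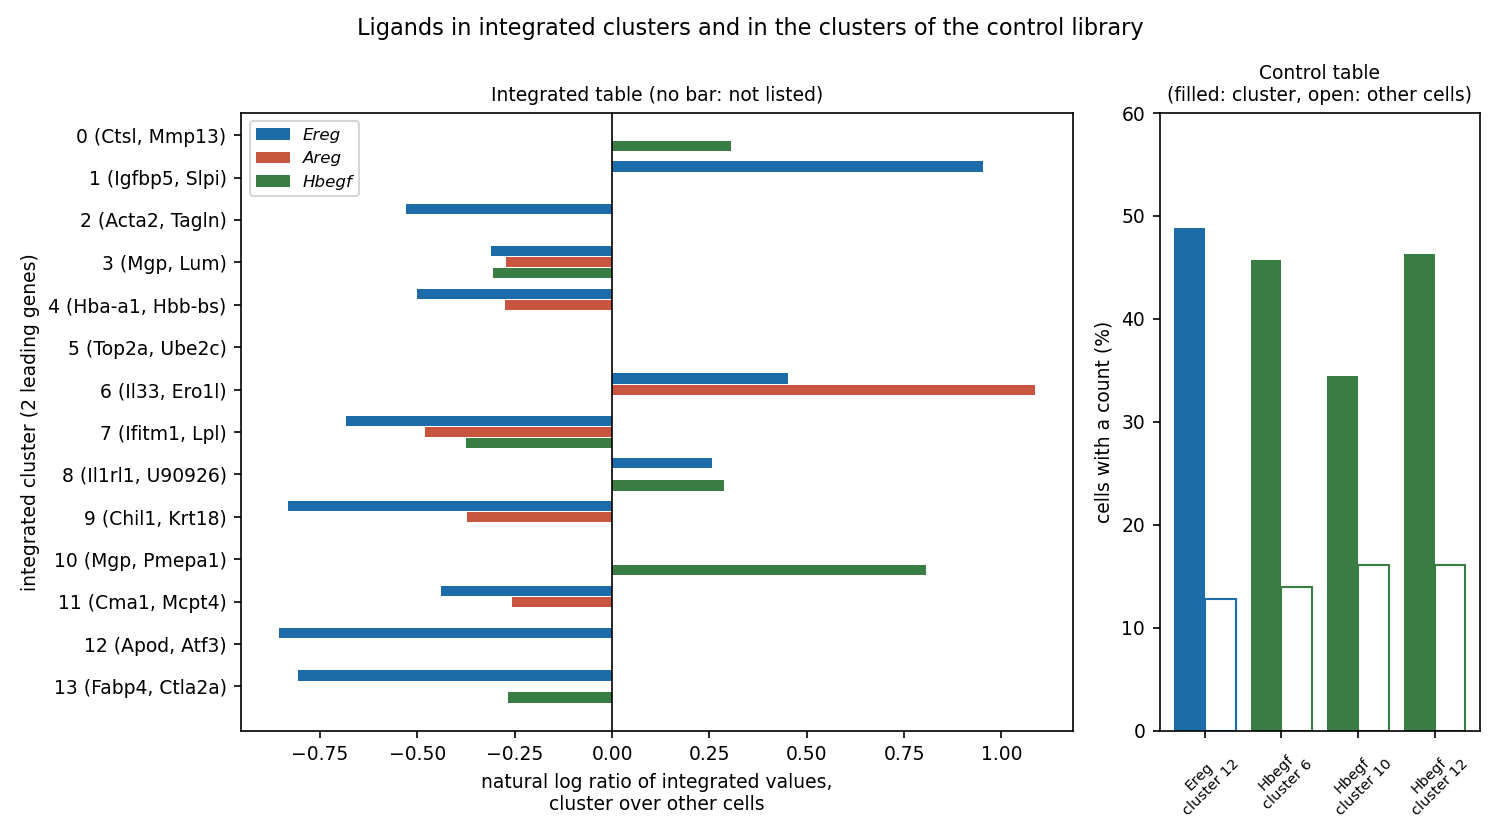
The left panel shows the natural log ratio of integrated values, cluster over all other cells, for Ereg, Areg and Hbegf in the 14 integrated clusters, and bars are missing where a gene was not listed. The right panel gives the percentage of cells with a count in the listed control clusters (filled) and in the other control cells (open). Ereg stands highest in integrated cluster 1, Areg in 6 and Hbegf in 10. The 4 control entries lie between 34.5% and 48.8%, all above their other cells. Control clusters with a low share of these ligands could not be listed.

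The genes whose log ratios across the 17 FGF2 clusters were most like those of each ligand differed between ligands. Clusters without an entry were set to 0 and 906 genes were ranked by Pearson's r, given as a description, since all points share 1 library, its depth and the clusters made from it. For Ereg they were Il11 (r = 0.95), a cytokine of activated fibroblasts, Ptgs2 (0.91), which encodes the prostaglandin synthase cyclooxygenase 2, and Cck (0.90), the cholecystokinin gene. Il11 was found in 99.3% of cluster 7 against 76.1% of the other cells and Ptgs2 in 95.1% against 70.0%. For Areg they were Il33 (0.96), an alarmin cytokine, Gm43154 (0.85) and Rarres2 (0.81), the chemerin gene. Il33 was found in 79.8% of cluster 3 against 37.5%. For Hbegf they were Ank (0.76), a phosphate and pyrophosphate exporter gene, Mdm2 (0.69), the ubiquitin ligase that acts on p53, and 3300005D01Rik (0.68). Ank and 3300005D01Rik each shared only 3 listed clusters with Hbegf. In the control library the genes most like Hbegf were Arhgef40 (0.85), Tnfrsf12a (0.82) and Tnc (0.82, the matrix protein tenascin C), over 15 clusters with 3 shared entries each.

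**Figure D4:**
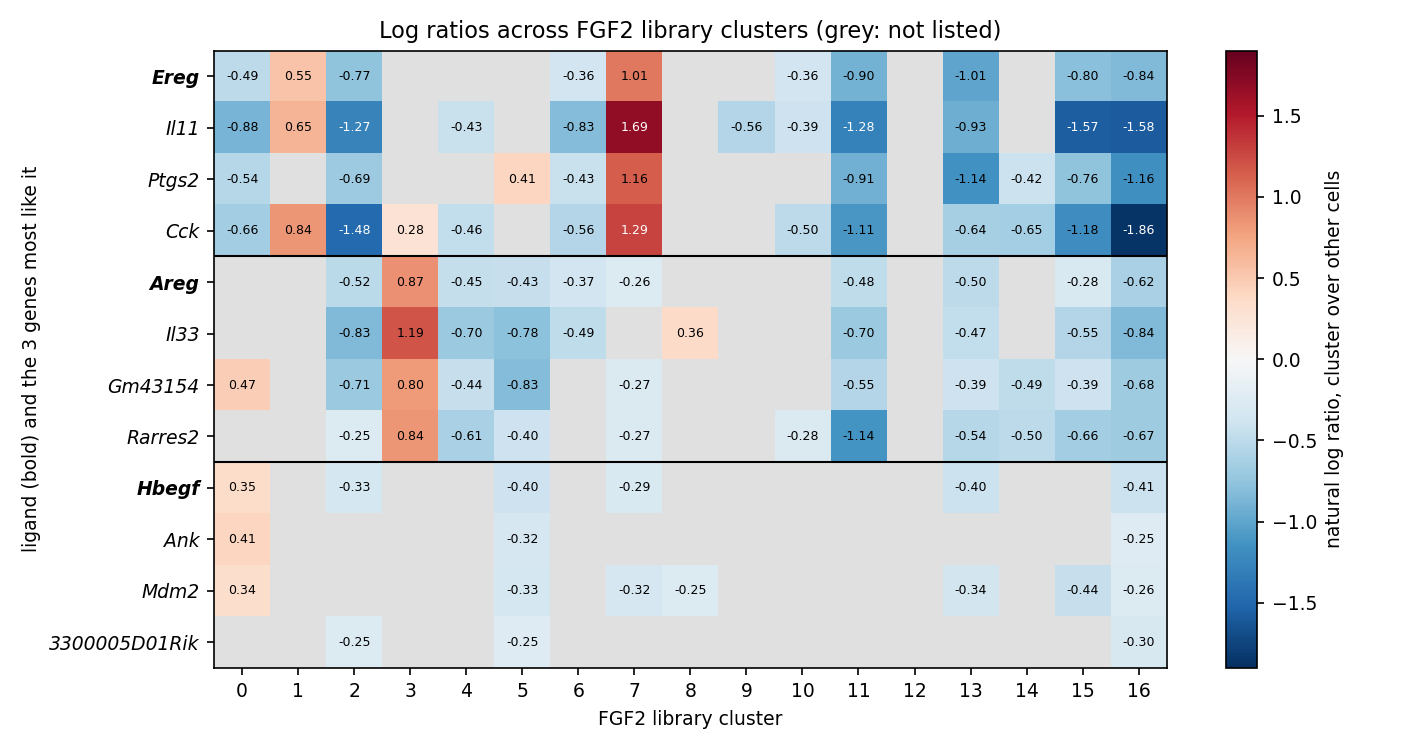
Rows are the 3 ligands, each with the 3 genes most like it, and columns the 17 clusters of the FGF2 library. Colour and numbers give the natural log ratio, cluster over other cells, and grey marks clusters without an entry. The Ereg rows are reddest in cluster 7 (Ereg 1.01, Il11 1.69), the Areg rows in cluster 3 (Areg 0.87, Il33 1.19), and Hbegf is red in cluster 0 alone (0.35).

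Other genes of the pathway were described by lists. Of 8 other EGF family ligands, 2 were listed in a library table. Btc, the betacellulin gene, was found in 11.1% of the FGF2 cells and 2.02% of the control cells, a log2 ratio of 2.41. Its entries came from the glial-like clusters alone, with 54.8% of FGF2 cluster 16 against 11% and 37.9% of control cluster 10 against 1.6%. Nrg1, a neuregulin that binds ErbB3 and ErbB4, had control entries only, with 23.6% of all control cells and 63.9% of the contractile-like cluster 5.

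Of the 4 receptors, 3 were listed in the control table and none in the FGF2 table. Egfr RNA was in 41.8% of control cells. It was higher in the basal epithelial-like cluster 13 (53.8% against 41.7%, natural log ratio 0.57). It was lower in the Schwann or glial-like cluster 10 (3.4%) and the macrophage-like cluster 11 (7.5%). Erbb2 was in 20.6% of control cells. Erbb3 was in 1.65%, with its 1 control entry in cluster 10, at 82.8% against 0.7%. After integration Erbb3 was listed higher in the Schwann or glial-like cluster 12 (natural log ratio 0.61). No receptor share for the FGF2 library was had, so ligand and receptor could not be set side by side there.

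Of 7 genes of ligand release, 5 were listed and 1 could be compared, the protease inhibitor gene Timp3 (45.3% of FGF2 cells, 45.6% of control cells). The proteases Adam17 (59.8%) and Adam10 (61.7%) were listed in the control table alone. Of 6 inhibitors of receptor signalling, Errfi1, a feedback inhibitor that binds the EGF receptor, was found in 84.8% of the FGF2 cells and 59.0% of the control cells, within 1.5-fold. In the FGF2 library it had 8 entries. It was higher in clusters 7 (97.4% against 83.9%) and 3 (95.4% against 83.6%), which led for Ereg and Areg. It was lower in clusters 0, 2, 13, 14, 15 and 16, and had no entry for cluster 1, which was also higher for Ereg. In cluster 0 only its level was lower (ratio 0.732), with a share of 86.3% against 84.5%. The 7 genes of proteins that bind HB-EGF or heparan sulphate carriers lay within 1.5-fold, with a median log2 ratio of 0.11 against -0.08 over all compared genes. Cd9, Cd81, Itgb1 and Sdc4 could not have been called higher. Their control shares were above 66.6%, the highest from which a 1.5-fold rise is possible. Among the 7 genes, Sdc1, a heparan sulphate carrier, was at 93.1% of FGF2 cluster 7 against 60.5%. Cd9, Sdc4 and Gpc1 were listed higher there too, whereas Hbegf itself was listed lower (28.1% against 40.1%). Sdc1 was also higher in FGF2 cluster 8 (81.7% against 61.3%), for which no ligand was listed.

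Of 18 genes of the response to ERK, the kinase that acts downstream of both FGF and EGF receptors, 10 could be compared. Of these 2 were higher, 1 was lower and 7 lay within 1.5-fold, with a median log2 ratio of 0.34. Over all compared genes 7.46% were higher and 15.1% lower. A further 4 of the 18 were listed for the FGF2 library and not the control: Dusp1 (54.0% of FGF2 cells), Dusp5 (32.4%), Etv1 (73.1%) and Etv4 (52.0%). Spry2 (35.2% of control cells) was listed for the control library and not for FGF2. No ratio was formed for these genes. Egr1, Ier3 and Spred1, among those within 1.5-fold, had control shares above 66.6% and could not have been called higher. Dusp6, an ERK phosphatase, was at 64.4% of FGF2 cells and 28.2% of control cells. Fosl1, an AP-1 factor, was at 64% of FGF2 cells and 16% of control cells, and Spry1, a Sprouty gene whose product restrains this pathway, at 26.4% of FGF2 cells and 44.6% of control cells. In control cluster 12, where Ereg and Hbegf were higher, Fosl1, Ier3 and Phlda1 were listed higher and Fos and Spry1 lower. Fosl1 was found there in 82.9% of cells against 15.4%, Fos in 26.8% against 61.2% and Spry1 in 7.3% against 44.9%. In control cluster 6, where Hbegf was higher, none of the 18 was listed higher, and Ccnd1 and Fos were listed lower. In FGF2 cluster 7, which led for Ereg, none of the 18 was listed higher and Ccnd1 was listed lower. Cluster 1, also higher for Ereg, had Dusp6, Etv1 and Ier3 listed higher and Ccnd1 lower. Of all tested genes, 0.883% were listed higher in cluster 7 and 0.374% in cluster 1. In cluster 3, which led for Areg, Fosl1 and Phlda1 were listed higher and none lower. In cluster 0, which led for Hbegf, Ccnd1 and Etv1 were higher and Fos and Ier3 lower.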

How the data were processed

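Cells were loaded on a 10x Chromium instrument, per the labels' protocols, and reads processed with Cell Ranger 4.0 and build mm10, per the submitters' processing notes. How cells were filtered and clustered, doublets treated, values normalized and tests run is not stated in the labels. The authors deposited 3 tables of cluster comparisons. Per the file headers they hold fractions of cells above 0, printed here as percentages, and an average log ratio, read as the natural log. That base was checked on genes with a listed share of 0 in several clusters, whose library average must agree: the median coefficient of variation was 0.000844% over 5 FGF2 genes, against 0.00563% with base 2. The authors' deposited p-values come from cells of 1 library and are not printed. Their ratio to the adjusted values gave the number of genes tested.

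The library share of a gene is the average of its 2 listed shares, weighted by the number of cells inside and outside the cluster, and is the same from every cluster. Least squares over genes with 2 or more entries gave the part of cells in each cluster (sum 99.95% for FGF2, 100.04% for control) and each gene's share. The residual was 0.0242 and 0.0238 percentage points. The steps were tested on simulated data. Ratios of shares used a pseudocount of 0.1% and a floor of 0.5% in 1 library. With averages R-fold apart and a cluster's part w, the level relative to the library is R/(wR + 1 - w). The design wrote the offset as 1, and only its presence was checked.

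The text names the 3 ligands wherever listed, receptors, list genes past 1.5-fold, the 3 genes most like each ligand, and the 3 leading genes of clusters. Errfi1, Sdc1, Timp3, Adam10, Adam17 and Nrg1, the markers and the list genes given for single clusters were chosen after their values were seen. The members and lists were chosen with earlier results of these data known. Python 3.11.15, pandas 2.3.3, numpy 2.4.6 and matplotlib 3.10.9 were used.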

Additional observations from a re-analysis of the deposited data

How the results depend on the processing

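The log2 ratio of Ereg, 2.35, stayed past the size rule under all alternatives run: 2.36 with no pseudocount, 2.28 with 1%, the same value under a 2-fold rule or other cluster parts, and 2.21 without the clusters of low listed share. Leaving out each listed cluster in turn gave 2.28 to 2.43. Hbegf, 1.27, moved more: 1.12 without the non-stromal clusters and 0.9997 (37.8% of FGF2 cells, 18.8% of control cells) without those of low listed share, which is under 2-fold. It was 1.14 without FGF2 cluster 0 and 1.48 without control cluster 6, and the other single clusters lay between. The first 2 of these take FGF2 clusters with no entry as wholly positive, which lowers the ratio by construction; the cause was otherwise not tested. The simple mean of implied shares gave the same values by construction. The count of 2 ligands higher held under a 2-fold rule, no floor and a pseudocount of 1%. With clusters listed for both genes, r was 0.96 for Il11, 0.99 for Ptgs2 and 0.92 for Cck with Ereg, and 0.98, 0.95 and 0.87 for Il33, Gm43154 and Rarres2 with Areg. The genes like Hbegf shared under 6 entries with it and gave no value. No alternative could be run for the library ratio of Areg, which has no control value. No paired analysis was possible because each group has 1 library. Depth per cell is unknown and limits every share.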
